A study of Mus musculus with 6 samples.

Results

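The genes described here are 52 genes of DNA replication and S phase, of 35275 genes in the deposited table. They were taken by symbol in 12 groups by role: origin recognition and licensing, the MCM2-7 helicase, helicase activation, polymerase alpha and primase, polymerases delta and epsilon, the sliding clamp and its loader, Okazaki fragment processing and resection, replication protein A, ribonucleotide reductase, chromatin assembly, fork protection and checkpoint, and cyclin E with the E2F factors. All 52 were found and 51 were tested, since flap endonuclease Fen1 stayed under the minimum mean of 1 FPKM (fragments per kilobase of transcript, scaled to the mapped total of the library, hence a level per length). RNA was sequenced from 3T3 cells, a line of mouse fibroblasts, carrying either a control construct or one for overexpression of nicotinamide N-methyltransferase (NNMT), which consumes S-adenosylmethionine to methylate nicotinamide. Each group had 3 libraries, described as biological replicates, and in both the methionine-free medium was supplemented to 10 µM methionine and 10% dialyzed serum for 48 h. The species of the NNMT sequence, its vector and promoter, and whether the cells are a clone or a pool are not stated in the labels.

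Before S phase, the origin recognition complex, Cdc6 and Cdt1 load the MCM2-7 helicase onto origins as an inactive ring, a step called licensing. In S phase, Cdc45 and the GINS complex join MCM2-7 to form the active helicase, polymerase alpha with primase starts each strand, and polymerases delta and epsilon extend it on the PCNA clamp. Many of these genes are transcribed by E2F factors when cyclin E and its kinase release them from the retinoblastoma family of pocket proteins, and 3T3 cells pass this point in response to serum.

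The libraries held 31622254 to 39982080 reads, recovered from the steps between the deposited values, so that 1 read on 1 kb was worth 0.025 to 0.0316 FPKM. Nnmt stood at 7.6, 5.25 and 6.51 FPKM in the control libraries and at 15.7, 15 and 18.3 FPKM in the NNMT libraries, with no overlap between the groups. The rise was 2.53-fold (limma adjusted p = 4.75e-06, and p = 0.1 in a two-sided exact permutation test, the smallest that 3 against 3 allows). Fibroblast markers were present in every library (Col1a1 1710 to 4030 FPKM, Vim 1020 to 1520 FPKM, Pdgfrb 27.3 to 57.2 FPKM). Col1a1, Col1a2, Col3a1 and Pdgfrb were higher in every NNMT library than in any control, and Thy1 and Vim were lower. Of 10 epithelial, blood and endothelial markers Epcam, Krt18 and Cd3e were listed at 0. Cdh1, Krt8, Ptprc, Pecam1, Cdh5 and Kdr did not exceed 0.14 FPKM, and the macrophage marker Cd68 was at 1.02 to 2.13 FPKM. In what follows n = 3 per group, levels are FPKM, and changes are NNMT against control on the log2(FPKM + 1) scale with an adjusted p under 0.05 over 10882 genes tested with limma as the threshold. These p-values measure the spread between the 3 cultures of a group only.

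Falls outnumbered rises among the replication genes. Of the 51 tested, 22 fell (43.1%), 9 rose (17.6%) and 20 did not pass the threshold, where 30.6% of all tested genes were lower and 35.0% higher. In either direction 60.8% of the replication genes passed, close to the 65.6% of all genes. Their median log2 fold change was -0.11 (interquartile range -0.33 to 0.01), and that of all genes tested was 0.03. The 2 groups of libraries did not overlap for 33 of the 51 (64.7%), against 69.9% of all genes. Of the 51, 5 (9.80%) passed with a log2 fold change of at least 0.5 in size, where 9.38% of all genes fell and 9.64% rose that far. These 5 were falls: the catalytic polymerase alpha subunit Pola1, the checkpoint adaptor Clspn, the small ribonucleotide reductase subunit Rrm2, the origin subunit Orc1 and DNA ligase Lig1. The scale of log2(FPKM + 1) understates low genes such as E2f2, whose mean level was 1.91-fold lower at a log2 fold change of -0.48. E2f2 is among the 22 that fell, but met the minimum mean of 1 FPKM only through the controls. Another scaling of the libraries (median of ratios) gave 5 higher and 26 lower, and limma-voom on the recovered reads gave the same counts. Over all genes both settings likewise gave fewer higher and more lower genes than limma on the deposited FPKM. With limma-voom 3798 of all genes were lower, against 3334 with limma on the deposited FPKM. Of the replication genes Mcm7, Rfc3 and Rrm1 were lower as well in both settings, with Gins1 in median of ratios and Rpa1 in limma-voom. In bulk RNA, fewer cells in S phase and less RNA per cell cannot be told apart.

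**Figure D1:**
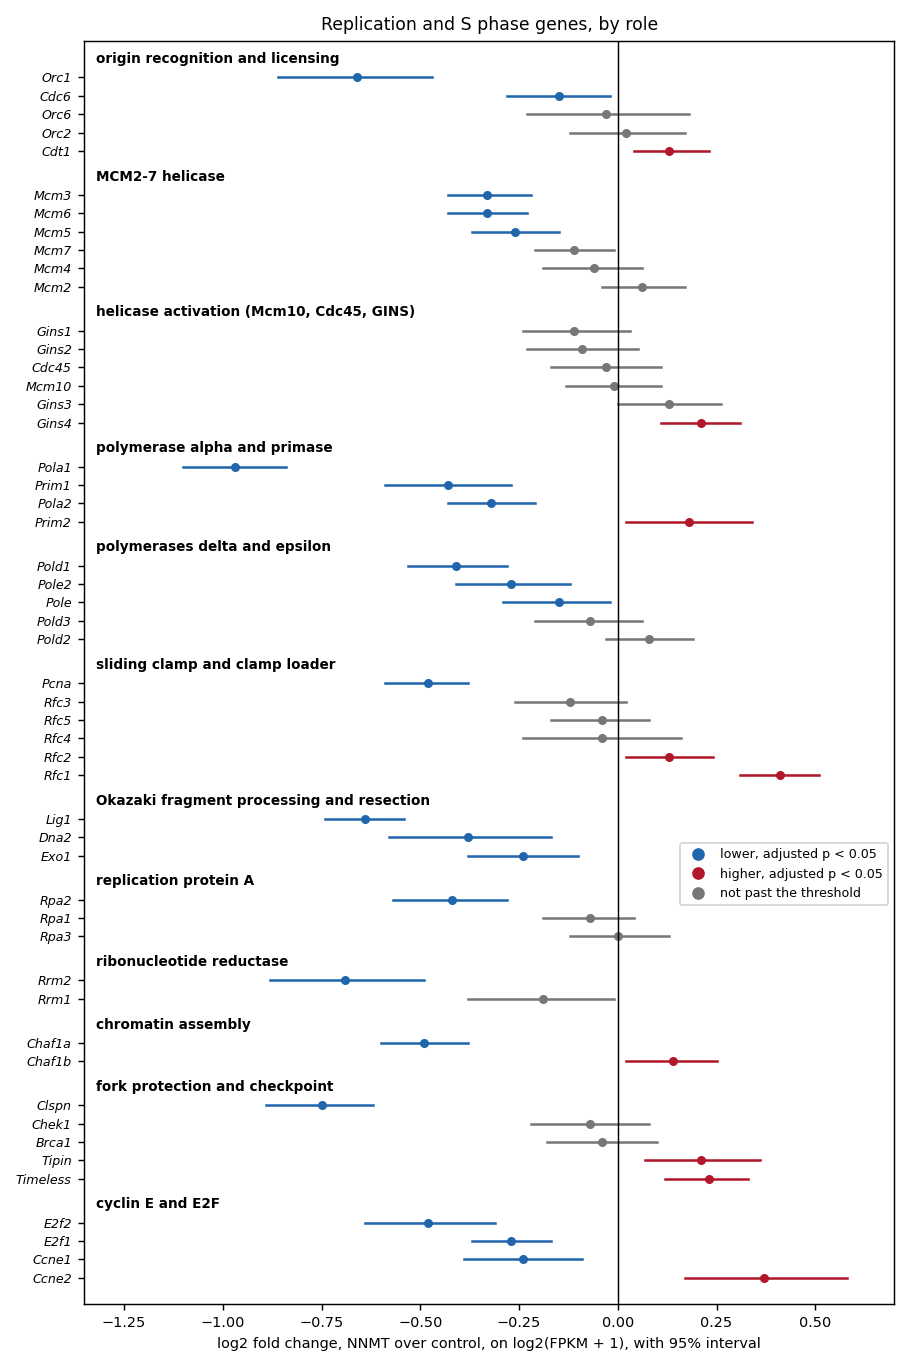
Log2 fold change on log2(FPKM + 1), NNMT over control, of each of the 51 tested replication genes (points) with its 95% interval (lines), grouped by role. Blue marks the 22 that fell, red the 9 that rose and grey the 20 not past the threshold; most groups hold members on both sides of 0, and Pola1 lies farthest left at -0.97.

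The promoters of these genes were read in the RefSeq table for GRCm38.p6, as windows from 250 bases before to 50 bases after each start, since E2F factors are known for binding near the starts of replication genes. Of the 52 genes 42 had an entry, with 49 windows. An E2F word, one of TTTCCCGC, TTTCGCGC, TTTGCCGC and TTTGGCGC on either strand, was in 16 of the 49 windows (32.7%), against 2.26% of all 32851 windows. By gene, 11 of the 20 fallen genes with an entry held one, as did 4 of 17 genes not past the threshold and 1 of 4 risen genes, Cdt1. Since 22 genes fell and 9 rose, most of the risen genes had no entry and could not be read. The CCAAT word was in 29 windows (59.2%, and 37.4% of all windows). TTTGAA, known as the cell cycle genes homology region of late cell cycle promoters, was in 6 (12.2%, and 17.9% of all windows). In 32 windows of mitosis genes TTTGAA was in 23 (71.9%) and an E2F word in 1 (3.12%). A match is a description of the letters, not evidence of a site.

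Stretches of 6 of these windows show what the word looks like. Pola1 and Clspn are the 2 largest falls with an E2F word on the log2(FPKM + 1) scale. Cdt1 is the only one with such a word among the 4 risen genes that had an entry. Mcm3, Mcm5 and Mcm6 are the helicase genes that fell and were chosen after their values were seen. Capitals mark the E2F words, and a word on the opposite strand reads as its reverse complement (GCGCCAAA for TTTGGCGC). The stretches are chrX:93632245-93632334 (minus strand) for Pola1, chr4:126556990-126557019 (plus) for Clspn, chr8:122568035-122568064 (plus) for Cdt1, chr1:20820275-20820304 (minus) for Mcm3, chr8:75109317-75109406 (plus) for Mcm5 and chr1:128359736-128359825 (minus) for Mcm6, each written 5′ to 3′ on the strand of the gene.
Pola1: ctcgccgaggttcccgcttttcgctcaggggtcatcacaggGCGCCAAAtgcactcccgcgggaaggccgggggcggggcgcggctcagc
Clspn: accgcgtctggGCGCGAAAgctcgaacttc
Cdt1: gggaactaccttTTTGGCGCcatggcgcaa
Mcm3: aaacttccgtgGCGGGAAAacttgggaagt
Mcm5: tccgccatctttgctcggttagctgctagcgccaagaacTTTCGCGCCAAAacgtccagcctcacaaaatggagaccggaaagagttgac
Mcm6: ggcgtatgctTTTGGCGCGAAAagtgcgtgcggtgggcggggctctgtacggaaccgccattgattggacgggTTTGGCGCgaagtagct
In Mcm5 and in the first run of Mcm6, 2 words on opposite strands overlap in a single run of capitals. TTTGGCGC is in the stretches of Pola1, Mcm5 and Mcm6, which fell, and of Cdt1, which rose. The window of Mcm3 holds 2 E2F words, of which 1 is shown.

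Among the licensing genes, the largest subunit gene of the origin recognition complex fell and the gene for the MCM loader Cdt1 rose slightly. Orc1 (ENSMUSG00000028587, chromosome 4, 108579423 to 108614833) stood at 5.05, 5.37 and 5.55 FPKM in control cells and at 2.53, 3.55 and 2.96 FPKM in NNMT cells. All 3 NNMT libraries lay below all 3 controls, a 1.77-fold fall (log2 fold change -0.66, SE 0.0888, limma adjusted p = 9.17e-05). The other tested genes within 5 Mb of Orc1 had a median of -0.4. The subunit genes Orc2 (14.4 ± 0.803 and 14.7 ± 1.17 FPKM, mean ± SD in control and NNMT cells) and Orc6 (25.9 ± 1.91 and 25.6 ± 3.73 FPKM) overlapped between the groups and did not pass. Orc2 shares 29.8% of its exon bases with other genes, Nif3l1 among them. Outside the list, the subunit genes Orc3 (7.54 ± 0.441 and 10.1 ± 0.605 FPKM) and Orc5 (9.3 ± 0.977 and 12.8 ± 0.915 FPKM) rose. Orc4 (6.8 ± 0.679 and 6.94 ± 0.845 FPKM) did not pass. Cdt1 stood at 48.6, 48.8 and 47.7 FPKM in control cells and at 51.8, 54.1 and 53.6 FPKM in NNMT cells, 1.1-fold higher with no overlap (limma adjusted p = 0.0188, and up to 0.102 among 17 alternatives). Cdc6, the ATPase that recruits Cdt1, fell from 8.88 ± 0.301 to 7.92 ± 0.497 FPKM (limma adjusted p = 0.0427, and up to 0.187 among those alternatives). Geminin (Gmnn), the inhibitor that binds Cdt1, fell from 23.4 ± 0.415 to 17.6 ± 2.78 FPKM. The ratio of Cdt1 to Gmnn was thus 2.04, 2.08 and 2.07 in control libraries and 3.31, 2.6 and 3.28 in NNMT libraries, with NNMT replicate 2 nearest to the controls.

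Of the 6 subunits of the MCM2-7 ring, Mcm3, Mcm5 and Mcm6 fell, and Mcm2, Mcm4 and Mcm7 did not pass the threshold. Among all genes tested 30.6% fell. Mcm6 stood at 53.9, 52.7 and 56.2 FPKM in control cells and at 42.3, 43.9 and 43.0 FPKM in NNMT cells, and Mcm3 at 91.8, 95.1 and 96.3 FPKM against 73.2, 78.2 and 73.8 FPKM. Both groups were clear of each other for both genes, each with a log2 fold change of -0.33 (limma adjusted p = 0.000112 and 0.000137). Mcm5 fell from 64.3 ± 1.37 to 53.5 ± 2.43 FPKM. Mcm7, at 89.0 ± 1.34 and 82.4 ± 3.18 FPKM, did not overlap either but missed the threshold (limma adjusted p = 0.0543); it passed as lower in 4 of 17 alternatives (median of ratios, limma-voom, no robust moderation, and without NNMT replicate 2). Mcm2 stood at 86.6 ± 1.41 and 90.5 ± 3.97 FPKM (log2 fold change 0.06, 95% interval -0.04 to 0.17), and Mcm4 at 60.0 ± 2.08 and 57.4 ± 3.94 FPKM (log2 fold change -0.06, 95% interval -0.19 to 0.06). As a share of the summed FPKM of the 6, Mcm2 thus went from 19.3% to 22.5%, Mcm6 from 12.1% to 10.7% and Mcm7 from 19.8% to 20.5%.

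Of the 6 genes that turn the loaded ring into the active helicase, the GINS subunit Gins4 rose and the others did not pass. Over all genes tested 65.6% passed, 35.0% as rises and 30.6% as falls. Gins4 stood at 30.6, 30.2 and 31.3 FPKM in control cells and at 35.1, 36.3 and 35.6 FPKM in NNMT cells, 1.16-fold higher with no overlap (log2 fold change 0.21, SE 0.0432, limma adjusted p = 0.00161). The other tested genes within 5 Mb of Gins4 had nearly the same median, 0.2. Mcm10, an activating factor, had a log2 fold change of -0.01 (95% interval -0.13 to 0.11) and Cdc45 one of -0.03 (95% interval -0.17 to 0.11). Gins1, Gins2 and Gins3 were at -0.11, -0.09 and 0.13. The value of Gins2 is uncertain, since 67.3% of its exon bases are shared with other annotated genes, Gse1 among them, and it is not known whether the reads were counted by strand.

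All 4 genes of the polymerase alpha and primase complex, which makes the RNA-DNA primer, passed the threshold, 3 as falls and 1 as a rise. Of all genes tested 65.6% passed, 30.6% as falls and 35.0% as rises. Pola1 (ENSMUSG00000006678, X chromosome, 93304767 to 93632155), the catalytic subunit, stood at 15.8, 16.1 and 16.9 FPKM in control cells and at 7.18, 8.14 and 8.1 FPKM in NNMT cells. Every NNMT library lay far below every control, a 2.09-fold fall (log2 fold change -0.97, SE 0.0585, limma adjusted p = 3.44e-07). Of the X-linked genes tested 90.2% fell, with a median of -0.70, and the other tested genes within 5 Mb of Pola1 had a median of -0.72. Its accessory subunit Pola2, on chromosome 19 among neighbours with a median of 0.18, fell from 34.9 ± 1.02 to 27.7 ± 1.29 FPKM (log2 fold change -0.32). Primase subunit Prim1 fell from 14.3 ± 0.93 to 10.3 ± 1.05 FPKM (log2 fold change -0.43). The other primase subunit, Prim2, stood at 14.7, 14.9 and 15.1 FPKM in control cells and at 15.2, 19.2 and 16.9 FPKM in NNMT cells. Its groups were separated by a margin smaller than the spread of the NNMT libraries, and the limma adjusted p of 0.0448 was lost in 11 of 17 alternatives (up to 0.143). The ratio of Prim1 to Prim2 went from 0.957 ± 0.0494 to 0.605 ± 0.00923 and that of Pola1 to Pola2 from 0.467 ± 0.016 to 0.282 ± 0.0248, neither overlapping between the groups.

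Of the polymerases that extend the strands, both catalytic subunit genes fell, where 30.6% of all genes tested did. Pold1, the catalytic subunit of polymerase delta, stood at 27.4, 27.0 and 27.5 FPKM in control cells and at 22.1, 19.7 and 19.4 FPKM in NNMT cells. All NNMT libraries were below all controls (log2 fold change -0.41, SE 0.0554, limma adjusted p = 0.000103). Pole, the catalytic subunit of polymerase epsilon, fell from 10.7 ± 0.503 to 9.5 ± 0.628 FPKM, a call at limma adjusted p = 0.0449 that was lost in 9 of 17 alternatives (up to 0.168). Its partner Pole2 fell from 13.5 ± 0.558 to 11.1 ± 0.978 FPKM (log2 fold change -0.27), where the neighbours of Pole2 had a median of -0.26. The accessory delta subunits Pold2 (log2 fold change 0.08, 95% interval -0.03 to 0.19) and Pold3 (-0.07, 95% interval -0.21 to 0.06) did not pass. Outside the list, the delta subunit gene Pold4 rose from 14.4 ± 1.04 to 18.7 ± 1.23 FPKM (log2 fold change 0.36). The epsilon subunit gene Pole4 rose from 37.3 ± 0.834 to 42.2 ± 1.79 FPKM (0.17), and Pole3 (-0.04) did not pass.

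The sliding clamp fell, while 2 of the 5 genes of its loader rose and 3 did not pass, where 35.0% of all genes tested rose. Pcna (ENSMUSG00000027342, chromosome 2, 132249162 to 132253314), the clamp that tethers the polymerases, was the member with the highest level, at 152, 146 and 158 FPKM in control cells and at 105, 111 and 109 FPKM in NNMT cells. No NNMT library came near the lowest control, and the fall was 1.4-fold (log2 fold change -0.48, SE 0.0473, limma adjusted p = 9.65e-06). Annotated processed copies of Pcna exist, and the labels do not say how reads that map to several places were counted. Rfc1 (ENSMUSG00000029191, chromosome 5, 65261850 to 65335670), the large subunit of the loader that opens the clamp, stood at 26.7, 25.7 and 27.2 FPKM in control cells and at 34.8, 36.2 and 35.6 FPKM in NNMT cells. It was the largest rise among the replication genes on the log2(FPKM + 1) scale, though not by ratio of means, with every NNMT library above every control (1.34-fold, log2 fold change 0.41, SE 0.0449, limma adjusted p = 2.27e-05). The small loader subunit Rfc2 rose 1.1-fold at limma adjusted p = 0.0395, lost in 9 of 17 alternatives (up to 0.16). Rfc3, Rfc4 and Rfc5 had log2 fold changes of -0.12, -0.04 and -0.04 and did not pass, and Rfc3 was lower in 3 alternatives. Of the summed FPKM of the 6 genes Pcna held 57.0% in control cells and 46.3% in NNMT cells.

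Lig1, Dna2 and Exo1, the 3 genes tested among those of Okazaki fragment processing and resection, fell, where 30.6% of all genes did. Lig1 (ENSMUSG00000056394, chromosome 7, 13277283 to 13311433), the ligase that joins Okazaki fragments, stood at 57.5, 54.8 and 55.4 FPKM in control cells and at 35.1, 36.7 and 34.7 FPKM in NNMT cells. Within each group the libraries were close and between them there was a wide gap (1.58-fold lower, SE of the log2 fold change 0.0452, limma adjusted p = 1.03e-06). Dna2, a helicase and nuclease of flaps and resected ends, fell from 4.21 ± 0.169 to 3.04 ± 0.546 FPKM. Exo1, an exonuclease of resection and mismatch repair, fell from 7.24 ± 0.275 to 5.99 ± 0.492 FPKM. Fen1, which cuts the flaps of Okazaki fragments, was listed at 0.545, 0.725 and 0.386 FPKM in control cells and at 0.716, 0.704 and 0.58 FPKM in NNMT cells, a low level beside that of Lig1. Its exons share 84.2% of their bases with Tmem258 and Gm10143, so that the level depends on how shared reads were counted.

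**Figure D2:**
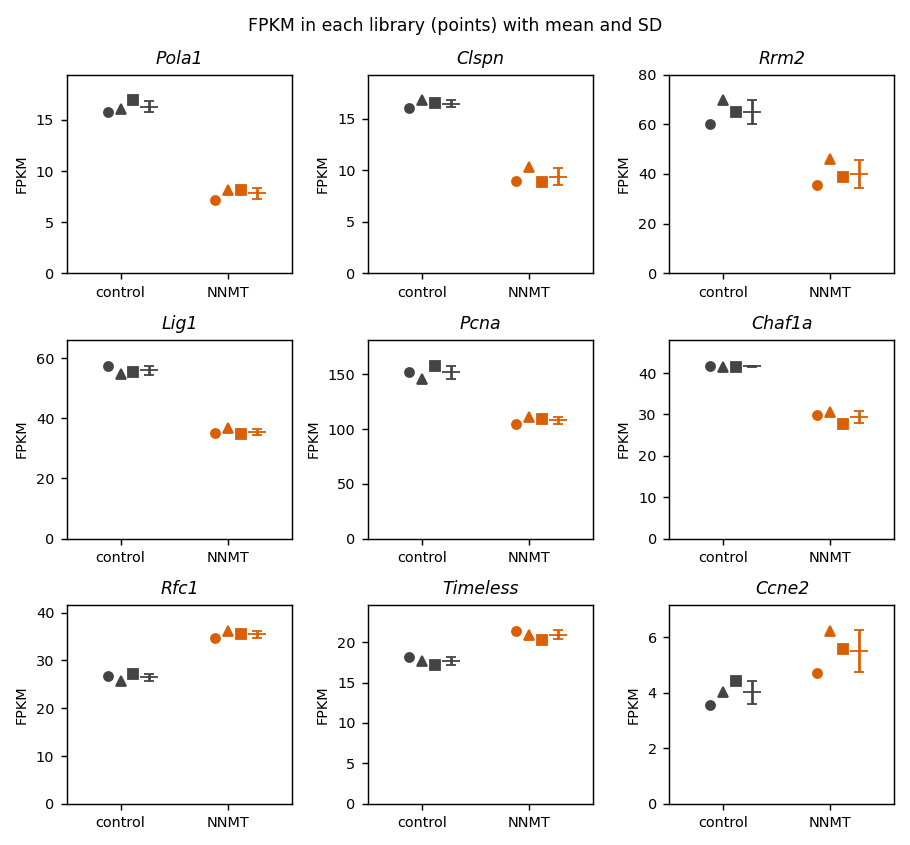
FPKM of 9 replication genes in the 3 control libraries (grey) and the 3 NNMT libraries (orange), with circles, triangles and squares for replicates 1, 2 and 3 of the controls and for the unnumbered library, replicate 2 and replicate 3 of NNMT; the bar at the right of each group is its mean with the SD. Pola1, Clspn, Rrm2, Lig1, Pcna and Chaf1a lie lower in NNMT cells and Rfc1, Timeless and Ccne2 higher, with no overlap in any of the 9.

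In replication protein A and in ribonucleotide reductase 1 subunit gene each fell and the others did not pass, where 30.6% of all genes tested fell. Of replication protein A, which coats single-stranded DNA, the middle subunit Rpa2 stood at 19.9, 22.6 and 21.9 FPKM in control cells and at 14.9, 17.1 and 15.3 FPKM in NNMT cells. This fall did not overlap (log2 fold change -0.42, SE 0.0652, limma adjusted p = 0.000237), and on chromosome 4 the neighbours of Rpa2 had a median of -0.33. Rpa1 (log2 fold change -0.07, 95% interval -0.19 to 0.04) and Rpa3 (0.00, 95% interval -0.12 to 0.13) did not pass, and Rpa1 was lower in 1 alternative, limma-voom. Ribonucleotide reductase makes deoxyribonucleotides, and its S phase subunit Rrm2 (ENSMUSG00000020649, chromosome 12, 24708241 to 24714146) stood at 60.0, 69.6 and 65.1 FPKM in control cells and at 35.5, 46.2 and 38.6 FPKM in NNMT cells. All NNMT libraries were lower by a wide margin, though each group varied more than for Lig1 (1.62-fold lower, SE of the log2 fold change 0.0888, limma adjusted p = 7.2e-05). The large subunit Rrm1 was at 60.9 ± 1.17 and 53.4 ± 7.46 FPKM, with overlap (limma adjusted p = 0.06), and was lower in 4 of 17 alternatives. The replacement small subunit Rrm2b, induced by p53, rose from 1.88 ± 0.147 to 3.07 ± 0.228 FPKM, so that the ratio of Rrm2 to Rrm2b went from 34.7 ± 5.18 to 13.2 ± 2.87.

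Of the 2 listed genes of chromatin assembly factor 1, which places histones behind the fork with PCNA, 1 was lower and the other higher. Over all genes tested 30.6% were lower and 35.0% higher. Chaf1a, the gene of the large subunit, stood at 41.8, 41.5 and 41.4 FPKM in control cells and at 29.8, 30.6 and 27.7 FPKM in NNMT cells. The controls were nearly equal and all NNMT libraries were lower (1.42-fold, SE of the log2 fold change 0.0488, limma adjusted p = 1.13e-05), but 52.5% of the exon bases of Chaf1a are shared with Ubxn6 on the opposite strand. Chaf1b stood at 14.9, 15.3 and 15.3 FPKM in control cells and at 15.9, 17.8 and 16.8 FPKM in NNMT cells. This rise of 1.11-fold (limma adjusted p = 0.0379) was lost in 10 of 17 alternatives (up to 0.134), and its neighbours on chromosome 16 had a median of 0.44. The ratio of Chaf1a to Chaf1b went from 2.74 ± 0.0481 to 1.75 ± 0.115. Rbbp4, a further subunit gene of the factor that is outside the list, fell from 74.0 ± 1.13 to 47.8 ± 2.97 FPKM. Its neighbours on chromosome 4 had a median of -0.33.

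The fork protection genes split between the checkpoint adaptor and the complex it works with. Of the 5 genes 1 fell and 2 rose, where 30.6% of all genes tested fell and 35.0% rose. Clspn (ENSMUSG00000042489, chromosome 4, 126556935 to 126593903), which brings Chek1 to the kinase ATR at stalled forks, stood at 16.1, 16.8 and 16.6 FPKM in control cells and at 8.95, 10.3 and 8.91 FPKM in NNMT cells. The groups did not overlap (1.75-fold lower, SE of the log2 fold change 0.0609, limma adjusted p = 2.66e-06), and its log2 fold change of -0.75 compares with a median of -0.36 for its neighbours. Timeless, which with Tipin holds the helicase and polymerases together, stood at 18.2, 17.7 and 17.2 FPKM in control cells and at 21.4, 20.9 and 20.3 FPKM in NNMT cells. All NNMT libraries were higher (1.18-fold, log2 fold change 0.23, SE 0.0469, limma adjusted p = 0.00161), while the neighbours of Timeless had a median of -0.13. Tipin rose from 32.5 ± 2.35 to 37.9 ± 2.6 FPKM (limma adjusted p = 0.0154, and up to 0.0675 among the alternatives). The checkpoint kinase Chek1 (log2 fold change -0.07, 95% interval -0.22 to 0.08) and the fork and repair protein Brca1 (-0.04, 95% interval -0.18 to 0.1) did not pass.

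The cyclins and E2F factors at the entry of S phase changed in all 4 genes, and the 2 E cyclins changed in opposite directions. The share past the threshold over all genes tested was 65.6%. Ccne2 stood at 3.57, 4.03 and 4.42 FPKM in control cells and at 4.71, 6.23 and 5.58 FPKM in NNMT cells. The lowest NNMT library lay just above the highest control (1.37-fold, log2 fold change 0.37, SE 0.0933, limma adjusted p = 0.00498), and its neighbours on chromosome 4 had a median of 0.22. Ccne2 shares 17.4% of its exon bases with Ints8 on the opposite strand, and it is not known whether the reads were counted by strand. Ccne1 fell from 21.6 ± 1.14 to 18.2 ± 1.65 FPKM, and the ratio of Ccne1 to Ccne2 went from 5.42 ± 0.344 to 3.31 ± 0.163. The activator E2f1 fell from 28.6 ± 0.368 to 23.4 ± 0.684 FPKM (log2 fold change -0.27). E2f2, the member with the lowest level among those tested, stood at 1.52, 1.44 and 1.37 FPKM in control cells and at 0.712, 0.83 and 0.726 FPKM in NNMT cells. Its NNMT libraries lay well below its controls (1.91-fold, limma adjusted p = 0.000221), with 715 reads over the control libraries and 399 over the NNMT libraries, and its neighbours had a median of -0.33. E2f2 passed the minimum mean of 1 FPKM, at 1.1 FPKM over all libraries, only through the controls. Its mean was 1.44 FPKM in control cells and 0.756 FPKM in NNMT cells. The other 50 tested genes had at least 1000 reads in each group.

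Some chromosomes held more lower or more higher genes than others. Of the 51, 5 lie on chromosome 4, where 56.7% of all tested genes were lower; 4 of these fell (Orc1, Rpa2, Clspn and E2f2) and Ccne2 rose. On chromosome 16, where 64.0% of tested genes were higher, Chaf1b rose and Mcm4, Cdc45 and Rfc4 did not pass. Outside chromosomes 4, 16, X and Y, 17 of 41 replication genes fell and 7 rose, with the same median of -0.11, where 27.3% of all tested genes there were lower and 36.2% higher, with a median of 0.04. Against the other tested genes within 5 Mb (13 to 172 of them), 42 of the 51 lay below the median of their neighbours, 8 above and 1 level with it at 2 decimals, with a median difference of -0.20; over all genes tested this difference was 0.00 and 50.1% lay below. What moves neighbouring genes together was not tested.

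**Figure D3:**
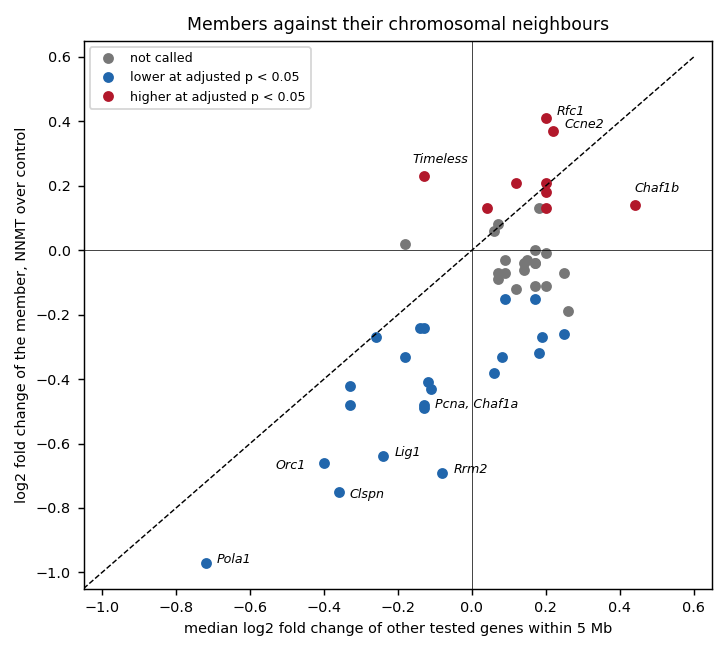
Log2 fold change of each of the 51 tested replication genes (vertical) against the median log2 fold change of the other tested genes within 5 Mb (horizontal); the dashed line marks equal values, blue the fallen, red the risen and grey the remaining genes. Most points, 42 of 51, lie below the line, and Pola1 at the lower left combines a low neighbourhood (-0.72) with a further fall.

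The libraries of a group were not alike for these genes. Control replicate 3 was the highest control for 29 of the 51 (56.9%, against 36.6% of all genes). Control replicate 1 was the lowest for 26 (51.0%, against 31.3%). Their median deviations from the control mean were 0.03 and -0.01 on the log2 scale, smaller than in NNMT cells. NNMT replicate 2 was the highest of the 3 NNMT libraries for 42 of the 51 replication genes (82.4%, against 37.4% of all genes) and the lowest for none of them, and the library without a replicate number was the lowest for 38 (74.5%, against 42.3% of all genes). The median deviation from the group mean was 0.07 in replicate 2 and -0.08 in the unnumbered library on the log2 scale, and 0.00 and -0.01 over all genes. The median coefficient of variation of the replication genes was 3.39% in control cells and 6.67% in NNMT cells, and over all genes 4.33% and 6.05%. In 38 mitosis genes the same NNMT libraries stood out further, with NNMT replicate 2 highest in 38 of 38 and median deviations of 0.19 and -0.18. Without replicate 2, 26 replication genes fell and 6 rose, with a median of -0.14; without the unnumbered library 20 fell and 9 rose, with a median of -0.06. What sets the order of these libraries was not tested.

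**Figure D4:**
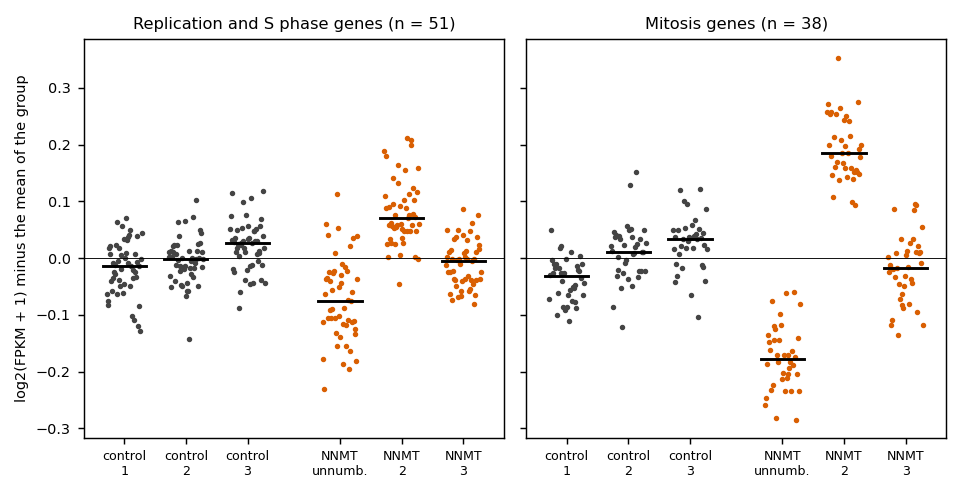
Log2(FPKM + 1) of each gene minus the mean of its group (vertical) in each control library (grey) and NNMT library (orange), for the 51 tested replication genes (left) and 38 mitosis genes (right); black bars are medians. In NNMT cells the unnumbered library lies low (-0.08 and -0.18) and replicate 2 high (0.07 and 0.19), and the control medians lie closer to 0.

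In 4 further lists of genes of the same processes the share past the threshold, 61.5% to 66.7%, was near the 65.6% of all genes. Of 36 other replisome and origin genes 15 fell (41.7%, where 30.6% of all genes did) and 9 rose, with a median of -0.09. Among them Uhrf1, which guides maintenance methylation to hemimethylated DNA, fell from 98.5 ± 1.95 to 62.4 ± 4.24 FPKM. The histone chaperone Rbbp4, a subunit of chromatin assembly factor 1 encoded on chromosome 4, fell from 74.0 ± 1.13 to 47.8 ± 2.97 FPKM. Orc3 rose from 7.54 ± 0.441 to 10.1 ± 0.605 FPKM and Chtf8, of the alternative clamp loader, from 48.8 ± 0.691 to 58.9 ± 1.26 FPKM. Chtf18 and Dscc1, of the same loader, were named after their values were seen. Chtf18 fell from 16.1 ± 0.492 to 11.8 ± 1.17 FPKM and Dscc1 from 2.99 ± 0.187 to 2.11 ± 0.101 FPKM.

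Of 13 nucleotide supply genes 4 rose and 4 fell (30.8% each, median -0.02), where 35.0% of all genes tested rose and 30.6% fell. The deoxycytidylate deaminase Dctd rose from 15.4 ± 0.638 to 27.9 ± 0.926 FPKM, and Umps, of pyrimidine synthesis on chromosome 16, rose from 22.4 ± 0.803 to 35.3 ± 2.73 FPKM. Thymidine kinase Tk1 fell from 44.6 ± 0.675 to 35.1 ± 3.6 FPKM. Of 27 genes of the S phase checkpoint and fork repair 11 fell (40.7%) and 6 rose (22.2%), with a median of 0.05. The Fanconi anaemia gene Fanca fell from 11.2 ± 0.244 to 6.12 ± 0.36 FPKM. Rad50, of the end-binding complex, rose from 12.4 ± 0.369 to 15.8 ± 1.07 FPKM and the recombination gene Brca2 from 2.59 ± 0.142 to 3.14 ± 0.236 FPKM.

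Of 26 tested genes of G1/S control 11 fell (42.3%) and 6 rose (23.1%), with a median of -0.10. Over all genes tested 30.6% fell and 35.0% rose, with a median of 0.03. Cyclin D1 (Ccnd1), which starts the release of E2F, fell from 65.5 ± 1.99 to 32.8 ± 4.43 FPKM (log2 fold change -0.98), while cyclin D2 (Ccnd2) rose from 69.0 ± 2.33 to 96.1 ± 4.34 FPKM (0.47). The third D cyclin, Ccnd3, named after its values were seen, fell from 27.4 ± 0.915 to 24.4 ± 1.12 FPKM. E2f5, a repressive E2F, fell from 10.1 ± 0.275 to 6.05 ± 0.404 FPKM, and Fbxw7, which marks cyclin E for degradation, rose from 5.61 ± 0.105 to 6.96 ± 0.13 FPKM. Mitosis genes, read for comparison, fell in 37 of 38 cases (97.4%, against 30.6% of all genes) with no rise. Their median was -0.56, with a range from -1.3 to -0.16, including Cdc20 on chromosome 4 (-1.30) and Kif4 on X (-1.20). On the log2(FPKM + 1) scale just 2 of the 51 replication genes, Pola1 and Clspn, lay beyond -0.70. By ratio of means E2f2 (1.91-fold) and Orc1 (1.77-fold) fell further than Clspn (1.75-fold). The difference between the lists was not tested.

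**Figure D5:**
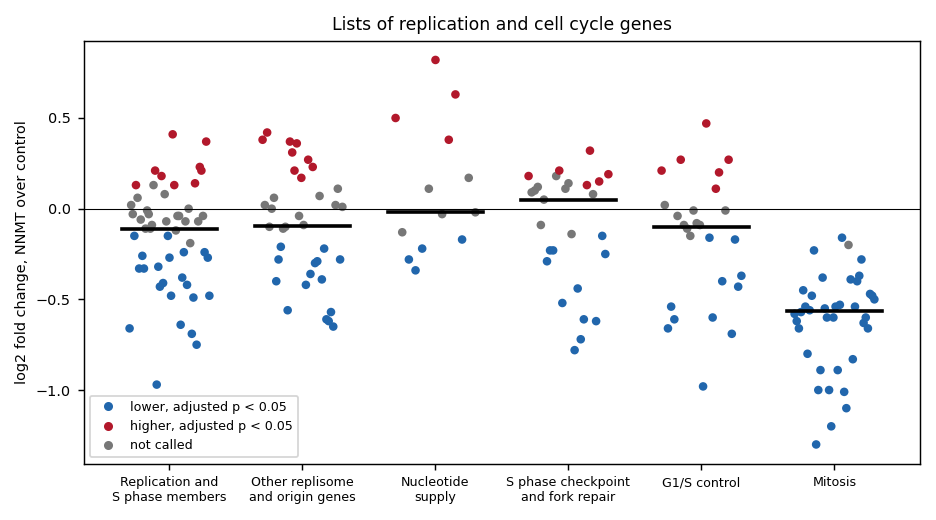
Log2 fold change, NNMT over control, of the tested genes of 6 lists (points; blue lower, red higher, grey not past the threshold), with black bars for the medians. The replication and S phase genes have a median of -0.11 with points on both sides of 0, and the mitosis genes a median of -0.56 with all points below 0.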

How the data were processed

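RNA-seq of 6 libraries, 3 per group, was analysed from 1 deposited table. The deposited values carry no unit in the header and were read as FPKM made by the authors, because they are whole multiples of a step that follows gene length; whole reads came out for 100% of 20528 genes above 0 (tolerance 0.01 of a read) and summed to 99.86% of the implied totals. Per the submitters' processing notes, CASAVA and STAR 2.5 were used with mm10; the read counter, annotation and strandedness were not given in the sources used here. Gene symbols, lengths and coordinates come from GENCODE M21, whose assembly GRCm38 is that of mm10 (34490 of 35275 identifiers paired). One NNMT column has no replicate number and was used as the remaining NNMT library. The test was limma 3.58.1 (R 4.3.3) on log2(FPKM + 1), over genes averaging 1 FPKM or more (trend, robust, two-sided, Benjamini-Hochberg over all genes tested); folds are ratios of group means. The script was checked on simulated data.

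The members, lists and tests were chosen with earlier results of these data known. By rule, values of all libraries are given for the largest rise and fall past the threshold in each role group and for the 10 smallest adjusted p. Each further list is shown by up to 2 genes per direction with the smallest adjusted p. Gmnn, Rrm2b, Mcm3, Ccnd3, Chtf18, Dscc1, Orc4, Orc5, Pold4, Pole3 and Pole4 were added after their values were seen. Some genes picked by this rule are not reported here. Of the listed symbols Emi1 was not found. Alternatives were other scalings, filters, pseudocounts and thresholds, limma without trend or robust moderation, limma-voom on recovered reads, each library left out, and a replicate block.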

Additional observations from a re-analysis of the deposited data

How the results depend on the processing

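The count of risen replication genes moved from 9 to 5 with median-of-ratios scaling and with limma-voom on recovered reads, to 4 at an adjusted p under 0.01, and to 0 where a log2 fold change of 0.5 in size was asked for as well, a setting that also took the fallen from 22 to 5. Leaving out 1 library at a time gave 4 to 9 risen and 20 to 26 fallen genes and medians from -0.14 to -0.06; the lowest counts of risen genes came without NNMT replicate 3 (4), control replicate 1 (5) and control replicate 3 (5). The other alternatives kept both counts within 1.5 times, and the median of -0.11 became -0.20 after subtracting that of the neighbours. No replication gene past the threshold changed direction. Of 17 alternatives other than the fold minimum, 4 risen genes (Gins4, Rfc1, Timeless and Ccne2) and 20 fallen genes passed each one that tested them. Among the 20 is E2f2, which met the minimum mean of 1 FPKM only through the controls. Cdt1, Prim2, Rfc2, Chaf1b, Tipin, Cdc6 and Pole missed at least 1. Genes not past the threshold in the report passed as lower in some alternatives: Mcm7 and Rrm1 in 4 each, Rfc3 in 3, Gins1 in 2 and Rpa1 in 1.

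The labels number the replicates 1 to 3 in both groups, but 1 NNMT column carries no number, so that only numbers 2 and 3 could be matched. A replicate block over these 4 libraries gave 9 risen and 20 fallen genes and a median of -0.07, without Cdc6 and Pole; same-numbered libraries correlated at 0.21 and 0.11 in their deviations, control replicate 3 with NNMT replicate 2 at 0.21, and control replicate 1 with the unnumbered library at 0.31. A block over 3 pairs was not fitted, and whether the numbers pair the samples is not settled. A minimum mean of 5 FPKM left Orc1, Dna2, Ccne2 and E2f2 untested. Over the alternatives the risen genes of the S phase checkpoint list numbered 0 to 8 (6 in the report), those of G1/S control 0 to 6 (6) and of other replisome genes 0 to 10 (9), and the fallen mitosis genes 26 to 38 (37). Over all genes, the fold minimum left 1049 higher and 1021 lower, of 3806 and 3334. Median-of-ratios scaling and limma-voom gave fewer higher and more lower genes over all genes too, as among the replication genes. Depth limits Fen1 and E2f2 most.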
